A study of Canis lupus familiaris with 33 samples.

Results

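The 12 fresh-frozen libraries of this study, out of 33 RNA sequencing libraries from 25 dogs, fell into 2 sets that the tissue labels do not name. Set B held 4 libraries, from the controls 60126 and 60462 and the tumours 60127 and 60461, and set A held the other 8, 4 control and 4 tumour. The sets were first seen in these same counts, as a split in the variation within each tissue, so the fresh-frozen difference between them is given here as a description without a test. Tests were kept for other contrasts. The formalin-fixed paraffin-embedded (FFPE) libraries of the same dogs took no part in the split. The tumour effect within each set was fitted on the same fresh-frozen libraries that gave the split.

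The study compared canine oligodendroglioma, a glial brain tumour, with brain described as healthy (control), and FFPE with fresh-frozen tissue. All tissue was taken at necropsy, 1 to 18 hours after death, and no dog is labelled as treated. The set A controls were a Hovawart of no stated age (60459), a French Bulldog of 6.9 years (60460), a Mongrel of 6.3 years (60516) and a Berner sennenhund of 10.2 years (60629). The set A tumours came from a Border Terrier of 8 years (60631) and from French Bulldogs of 4.7 years (60636), 8.2 years (60679) and no stated age (60749). The set B controls were a Bolonka Swetna of 2.8 years (60126) and a French Bulldog of 8 years (60462), and the set B tumours came from a Pomerian of 10 years (60127) and a Boxer of 8.8 years (60461). All 6 of these tumours were grade III apart from the grade II tumour of dog 60679. FFPE libraries of the set dogs numbered 4 in set B, one from each of its dogs, and 4 in set A (control 60460, tumours 60636, 60679 and 60749). A score given at the end also covers 13 FFPE libraries of other dogs. They were 7 controls (4 Boxers and 3 French Bulldogs, 2 of them with a stated age, 2 and 4 years) and 6 tumours (3 Boxers and 3 French Bulldogs of 5.3 to 12 years, 1 tumour of grade II). The labels used here give no run, lane or preparation date, so a batch of that kind and the set cannot be told apart. The identifiers in the table were paired with no gene names, so the labelled tissues were not checked against marker genes, and genes are described by position, structure and surroundings.

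Mammalian genomes are uneven, with long stretches that hold few, often large genes and compact stretches where many small genes lie close together. Gene-dense stretches of mammalian chromosomes are known to be richer in G and C bases and to hold many broadly expressed genes. The mitochondrial genome is a separate small circle that is copied into RNA from both strands, and most of its longer genes lie on one of them. In bulk tissue, fewer cells of a type and less RNA per cell cannot be told apart, which holds for every level given here.

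The total of counts assigned to genes moved with the set. Reads sequenced were not counted here. Total counts per library ran from 9.77 to 19.4 M in set A and from 24.5 to 26.7 M in set B, without overlap. Total counts of the 8 FFPE libraries ran from 1.6 to 32.6 M. After every fresh-frozen library was thinned at random to 9765907 counts, 1046 genes met the rule for carrying the split given below, 881 of them among the 1189 genes that met it at full depth. Pairs of libraries of the same set and tissue differed by far more than counting noise in all 14 cases (chi-square per degree of freedom 20.7 to 440), so each was counted as its own sample.

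A principal component analysis was made of log2 CPM (the log2 of counts scaled to a library size adjusted by TMM factors) after subtraction of each gene's tissue mean. The first component, with 34.6% of the variance, separated the tumours from one another. It ran from -94.8 in tumour 60749 and -87.7 in tumour 60631 to 78.6 in tumour 60679, with set B libraries between -26.2 and 59.9. The second component, with 23.3%, was the split. Set B scored 54.7 and 46.3 in its controls 60126 and 60462, and 70.5 and 64.7 in its tumours 60127 and 60461. Set A scored between -50 and -9, with tumour 60749 nearest to set B, so the sets lay apart in both tissues.

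**Figure D1:**
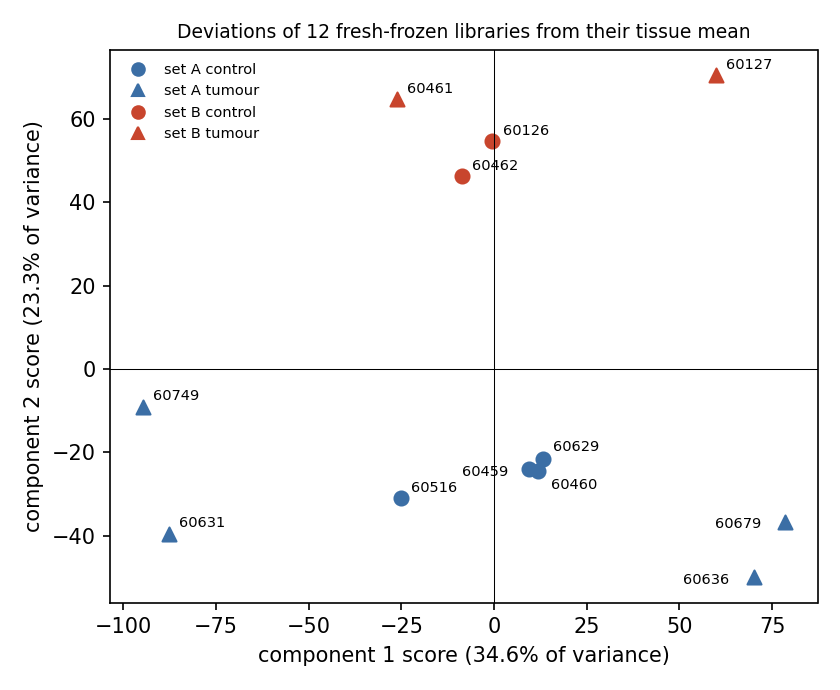
Scores of the 12 fresh-frozen libraries on the first (x axis) and second (y axis) principal component of log2 CPM deviations from the tissue mean, numbered by dog. Circles are controls, triangles tumours, blue set A and red set B. The second component runs from -50 to -9 in set A and from 46.3 to 70.5 in set B.

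A gene was counted as carrying the split where set B differed from set A by at least 2-fold and where both set B libraries lay beyond all 4 set A libraries of the same tissue, on the same side in control and tumour. Of 15057 genes tested, 399 were higher in set B (2.65% of genes tested) and 790 were lower (5.25%), 1189 in all (7.90%). Without the fold, 1269 genes (8.43%) were higher and 1323 (8.79%) lower in set B with no overlap in either tissue. These counts are what the sets were chosen for, and no weight rests on them. At the 2-fold line, 190 counted genes had a log2 fold change of 1 to 1.1 in size, and 238 non-overlapping genes just missed it with 0.9 to 1.

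Higher and lower genes differed in kind. The higher genes had a median log2 fold change of 1.33 (1.40 between the control means, 1.33 between the tumour means), up to 6.13, and 51 of them were at least 4-fold higher. The lower genes had a median of -1.36 (-1.16 in control, -1.44 in tumour), down to -4.95, with 54 at least 4-fold lower. The median over all genes tested was -0.04. The higher genes had a median exonic length of 1014 bp against 2048 bp for all genes tested, and the lower genes (median 1992.5 bp) were near that length but lay in crowded surroundings. The number of multi-exon genes within 500 kb on either side, called neighbours here, had a median of 29 for lower genes, 11 for higher genes and 14 for all genes tested.

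The 4 identifiers printed here show the split gene by gene, the 2 most clearly higher and the 2 most clearly lower among the counted genes with a mean of at least 2 log2 CPM. ENSCAFG00000030066 is a single exon of 164 bp on the minus strand (CanFam3.1, chr18:3930390-3930553). Its log2 CPM in set A was 2.66, -0.23, 4.22 and 1.39 in controls 60459, 60460, 60516 and 60629, and 1.86, 0.34, 0.54 and 4.32 in tumours 60631, 60636, 60679 and 60749. In set B it was 6.81 and 4.40 in controls 60126 and 60462, and 5.45 and 5.42 in tumours 60127 and 60461. The sets did not overlap in either tissue, although control 60516 of set A (4.22) lay close to control 60462 of set B (4.40). The fitted log2 fold change was 3.02. Most set A libraries held few reads of it, between 14 and 320 counts, against 509 to 2537 in set B.

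ENSCAFG00000028262, a single exon of 143 bp on the minus strand that overlaps 1 other gene (chr21:33972217-33972359), followed the same order. Set A controls held 0.73, 1.27, 3.52 and 0.74 log2 CPM and set A tumours 3.53, 3.29, 1.68 and 4.89, in the same dog order. Set B controls held 5.25 and 5.64 and set B tumours 6.74 and 6.87, so each set B library exceeded all set A libraries of both tissues. The log2 fold change was 3.22.

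On the lower side, ENSCAFG00000001487, a gene of 5 exons with 724 bp of exon and 29 neighbours (chr10:26932301-26935646, minus strand), had a log2 fold change of -2.35. Its log2 CPM was 3.57, 3.14, 6.46 and 3.65 in set A controls and 4.46, 6.06, 4.00 and 4.95 in set A tumours. In set B it was 2.06 and 2.51 in controls and 3.58 and 2.08 in tumours. Control 60516 and tumour 60636 stood high within set A, and tumour 60127 of set B came closest to set A.

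ENSCAFG00000030419, a single exon of 1002 bp that overlaps 1 other gene (chr26:5005776-5006777, plus strand), had a log2 fold change of -2.23. Set A held 3.38, 4.53, 3.38 and 3.87 log2 CPM in controls and 4.50, 3.67, 3.19 and 2.19 in tumours. Set B held 1.66 and 2.07 in controls and 1.01 and 1.38 in tumours, below every set A library. For the 2 genes that overlap another, reads could belong in part to the partner.

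The surroundings of a gene ordered the split. Of 4783 multi-exon genes with up to 10 neighbours, 142 were higher (2.97%) and 46 lower (0.962%), and the class median of the log2 fold change was 0.23. With 11 to 20 neighbours, 124 of 4886 were higher and 152 lower (median 0.02), and with 21 to 30 neighbours, 31 of 1914 were higher and 181 lower (median -0.36). With over 30 neighbours, 9 of 2440 were higher (0.369%) and 336 lower (13.8%), and the median was -0.64. Over all genes tested, 2.65% were higher and 5.25% lower. With up to 10 neighbours, the share of higher genes was thus near that over all genes, and the share of lower genes was below it. With over 30 neighbours both shares departed from those over all genes. The medians thus fell step by step from the emptiest to the most crowded surroundings. They did so in control (0.20, 0.05, -0.27 and -0.46) and in tumour tissue (0.34, 0.10, -0.32 and -0.67).

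Genomic span, the distance from first to last exon, went with this order, and the order was present within each class of span. Among genes with over 30 neighbours the median was -0.65 for spans under 10 kb, -0.63 for 10 to 50 kb and -0.59 for 50 kb or more. Among genes with up to 10 neighbours it was 0.24, 0.30 and 0.19 for the same spans. By abundance, the median was -0.25 for genes under 2 log2 CPM, -0.10 from 2 to 6, and 0.19 above 6. This order held between the tumour means (-0.20, -0.03 and 0.28) but not between the control means (0.02, -0.07 and 0.12). Base composition was not analysed here.

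Every fresh-frozen library followed its set in this order. The deviation of each library from the midpoint of the set A and set B means of its tissue was taken as a median over genes with over 30 neighbours, and the same median over genes with up to 10 neighbours was subtracted. Centring on the midpoint places the set means about equally far above and below 0, so the opposite signs of the sets are built in, and the spread of libraries within a set is not. The difference was 0.30, 0.35, 0.28 and 0.33 in set A controls and 0.66, 0.39, 0.40 and 0.37 in set A tumours. It was -0.38 and -0.25 in set B controls and -0.62 and -0.31 in set B tumours. As shares of all counts in multi-exon genes, those with over 30 neighbours took 14.4% to 14.9% in set A controls and 15.3% to 18% in set A tumours. They took 10.8% to 11.3% in set B controls and 10.5% to 12.7% in set B tumours, so the sets did not overlap.

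**Figure D2:**
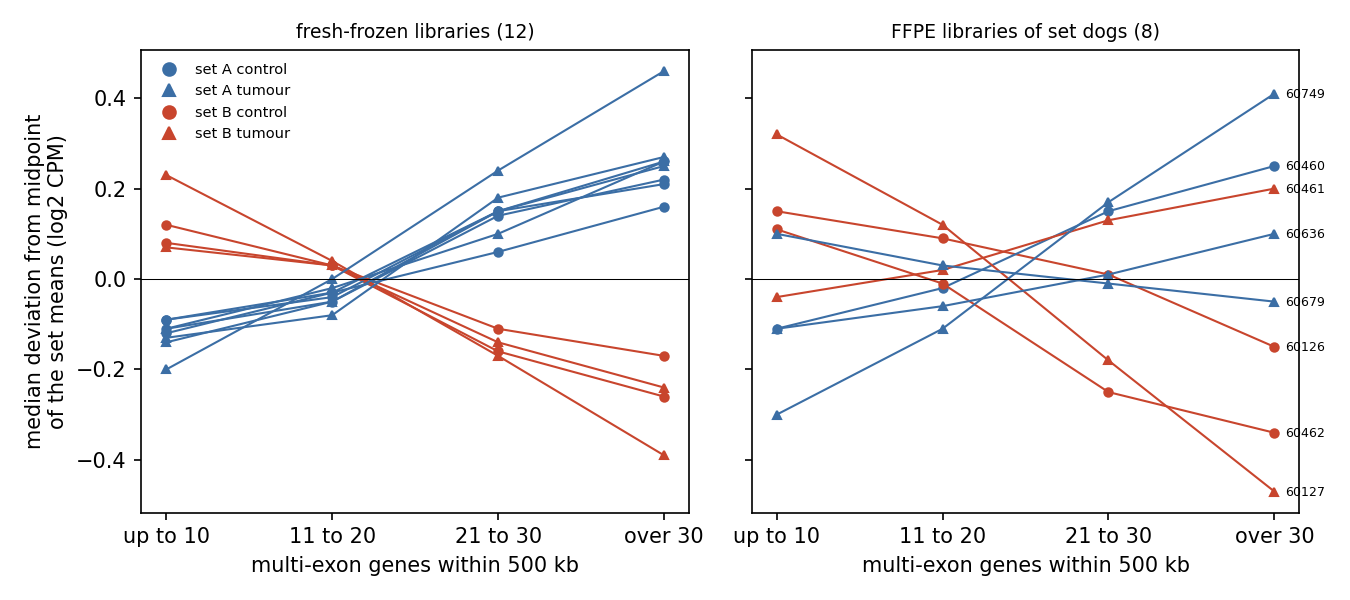
Median deviation of each library from the midpoint of the 2 set means of its tissue and preservation (y axis, log2 CPM) in 4 classes of multi-exon genes by the number of multi-exon genes within 500 kb (x axis), 1 line per library; the left panel shows 12 fresh-frozen and the right panel 8 FFPE libraries. Blue lines are set A, red lines set B, circles controls and triangles tumours. In fresh-frozen tissue all 8 blue lines rise and all 4 red lines fall to the right, and in FFPE tissue the line of tumour 60461 of set B rises while that of tumour 60679 of set A falls.

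Chromosomes lay in the order of their gene density. Chromosome 20, with a median of 32 neighbours per gene, had the lowest median log2 fold change (-0.51), and of its 691 multi-exon genes 2 were higher (0.289%) and 75 lower (10.9%) in set B, against 2.65% and 5.25% of all genes tested. Chromosomes 9 and 18 followed at -0.41 each, then 24 at -0.34 and 38 at -0.33. At the other end stood chromosome 36 (median 7 neighbours) at 0.42, with 8 of 125 genes higher and 0 lower, then 14 at 0.34, and 29 and 32 at 0.33 each. Chromosome X, with a median of 10 neighbours, stood at 0.09. Of its 512 genes 19 were higher (3.71%, against 2.65% of all genes tested) and 14 lower (2.73%, against 5.25%).

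Across the 39 chromosomes, median neighbours and median log2 fold change had a Spearman rho of -0.87, a description over chromosomes that share the same 12 libraries. The order was also present inside chromosomes, where rho between a gene's neighbours and its log2 fold change was negative on 37 of 39. The exceptions were chromosomes 32 (0.10) and 36 (0.14), with medians of 8 and 7 neighbours. Chromosomes 14 and 19, with the same medians of 8 and 7, had a rho of -0.24 and -0.12. Over all multi-exon genes rho was -0.40.

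**Figure D3:**
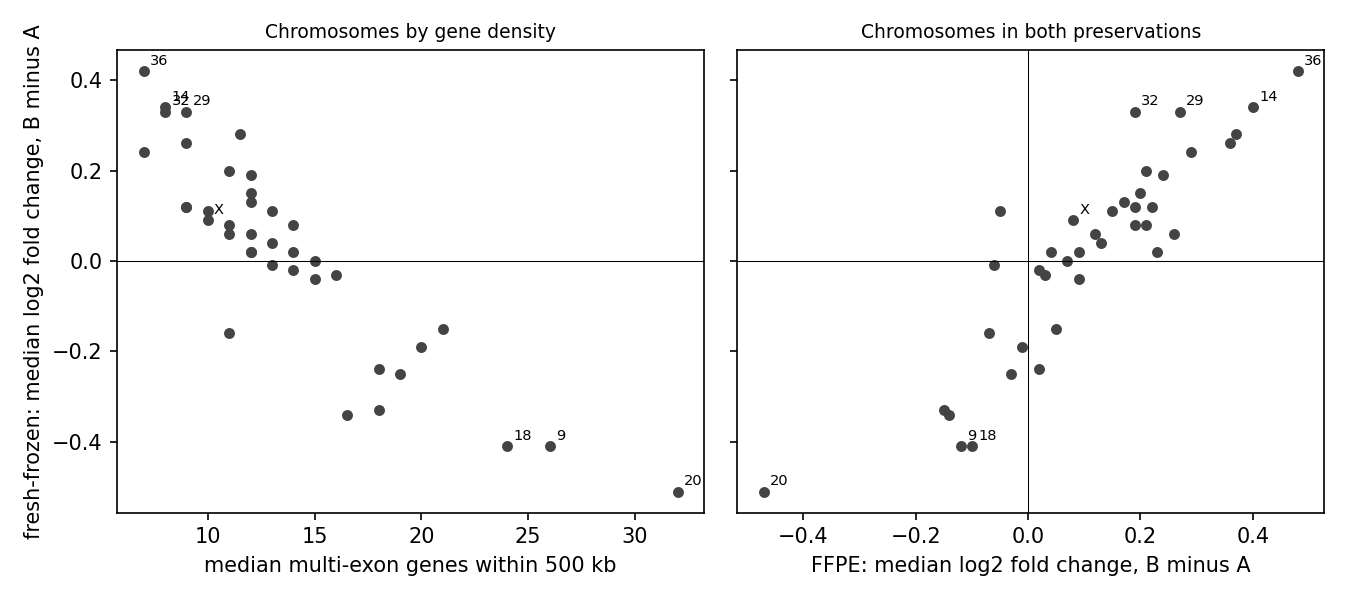
Median log2 fold change of set B minus set A over the multi-exon genes of each chromosome in fresh-frozen tissue (y axis), against the chromosome's median number of multi-exon genes within 500 kb (left x axis) and against its median in the FFPE libraries of the same dogs (right x axis). Each of the 39 points is 1 chromosome, and 8 are numbered. Chromosome 20 is lowest (-0.51 fresh-frozen, -0.47 FFPE) and chromosome 36 highest (0.42 and 0.48).

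On a finer scale, 188 stretches of 2 Mb held at least 20 tested multi-exon genes each, a choice that leaves out sparse stretches. Of these, 64 had a median of -0.5 or lower and 6 had a median of 0.3 or higher. The lowest were chromosome 10 from 16 to 18 Mb (28 genes, 26 below 0, 11 counted as lower, median -1.06) and chromosome 38 from 22 to 24 Mb (20 genes, 18 below 0, median -1.06). Next came chromosome 18 from 44 to 46 Mb (20 genes, -1.05) and chromosome 13 from 36 to 38 Mb, where 49 of 51 genes lay below 0 (median -1). The highest were chromosome 4 from 8 to 10 Mb (0.37), and chromosome 37 from 10 to 12 Mb (0.36), where 22 of 23 genes lay above 0.

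Outside the multi-exon genes, short single-exon features, annotated as 1 exon of at most 300 bp, were often higher. Of 265 tested, 48 were higher (18.1%) and 10 lower (3.77%), and the median was 0.62. Their share of all counts did not separate the sets. It was 0.336% to 0.682% in set A and 0.545% to 0.722% in set B controls, and 0.631% to 1.58% in set A and 0.844% to 1.25% in set B tumours. Library medians overlapped in tumours too, at 0.35 in tumour 60749 of set A and 0.17 in tumour 60127 of set B. Single-exon genes over 300 bp stood on both sides, 38 of 640 being higher and 55 lower (median -0.19). Genes on unplaced scaffolds numbered 92, 5 of them higher (5.43%) and 10 lower (10.9%), with -0.57 as their median. Among 109 tested nuclear genes overlapped on the opposite strand by a gene with at least 16 times their counts, 1 was higher (0.917%) and 9 lower (8.26%), with -0.26 as their median. Over all genes tested 2.65% were higher and 5.25% lower.

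The 37 features of the mitochondrial genome divided by strand. The 14 longer plus-strand features (200 bp or more) all had a log2 fold change above 0, with a median of 1.03, but none separated the sets in both tissues. Of the 14 shorter plus-strand features 8 were above and 6 below 0 (median 0.15). The 9 minus-strand features had a median of 1.96, 8 of them above 0, and 2 of them carried the split. One of these, of 71 bp at position 6891 to 6961, held 3.82, 4.75, 4.26 and 4.65 log2 CPM in set A controls and 3.49, 4.40, 2.93 and 3.36 in set A tumours. It held 6.30 and 6.27 in set B controls and 6.60 and 5.27 in set B tumours.

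Minus-strand features took a small part of mitochondrial counts: 0.121% to 0.176% in set A controls and 0.152% to 0.228% in set A tumours, against 0.36% to 0.382% in set B controls and 0.236% to 0.274% in set B tumours. The sets did not overlap in either tissue. This minus-strand share was weighted towards its most abundant feature, of 528 bp at position 13582 to 14109. That feature had a mean of 7.26 log2 CPM, against 4.68 for the next, at position 6891 to 6961. Its own level overlapped between the sets in tumours, at 6.70 in 60461 of set B and 7.06 in 60636 of set A. The mitochondrial share of all counts was less clear. It was 9.94% to 15.6% in set A controls and 15.2% to 19.8% in set B controls, and 4.06% to 8.92% in set A tumours against 5.33% (60461) and 23.3% (60127) in set B tumours, so the sets overlapped in both tissues.

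**Figure D4:**
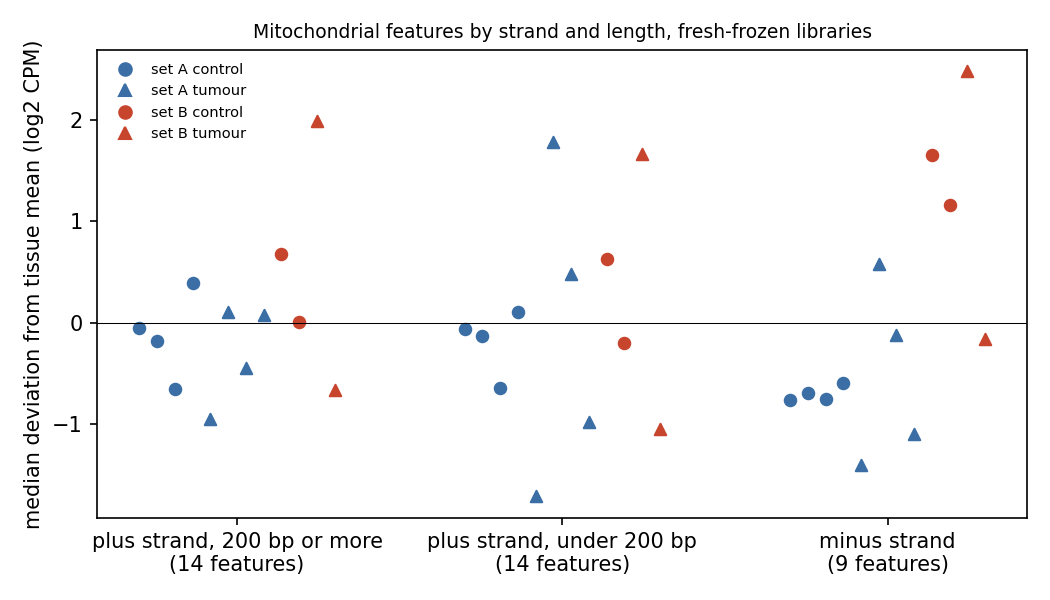
Median deviation of each fresh-frozen library from its tissue mean (y axis, log2 CPM) over mitochondrial features grouped by strand and length (x axis), 12 points per group. Blue is set A, red set B, circles controls and triangles tumours. On the minus strand both set B controls lie above all set A controls, while tumour 60461 of set B lies among the set A tumours on either strand.

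The FFPE libraries of the same dogs took no part in choosing the sets. All 4 set A dogs with an FFPE library were French Bulldogs, and in set B only control 60462 was. Breed and set could therefore largely not be told apart in this contrast. Of 15034 genes tested between the 4 set B and 4 set A dogs with tissue as a covariate, 0 (0%) passed edgeR's quasi-likelihood test with Benjamini-Hochberg adjustment, 624 (4.15%) had an unadjusted p under 0.05, and 8150 (54.2%) had a log2 fold change above 0 and 6884 (45.8%) below 0. DESeq2 called 9 genes (978 at an unadjusted p under 0.05) and limma voom with quality weights called 0 (2614). The unadjusted count rested on single libraries: it was 141 without tumour 60127, 324 without tumour 60636, 367 without control 60460, 1059 without control 60462 and 1288 without tumour 60461. No gene of the split was therefore called in FFPE tissue by edgeR. The 4 printed identifiers had FFPE log2 fold changes of 1.86, 1.83, -1.91 and -0.77 in the order given above, each with an edgeR adjusted p of 0.869.

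The directions were shared all the same. Of the 399 higher genes, 367 were tested in FFPE tissue and 347 of them (94.6%) were also higher in the set B dogs, with a median of 0.65. Of the 790 lower genes, 750 were tested and 716 (95.5%) were also lower, with a median of -0.74, against 0.05 for all genes tested in both. The other 32 and 40 genes did not pass the filter on low counts. An unadjusted p under 0.05 was reached by 53 higher genes (14.4% of those tested) and 90 lower genes (12%), all in the direction of the fresh-frozen difference. Across 14406 genes the FFPE and fresh-frozen log2 fold changes correlated with r = 0.58 (Pearson) and rho = 0.60 (Spearman), over libraries that share 8 dogs, and genes are not independent replicates.

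The order by surroundings was present in FFPE tissue as well. Medians were 0.27, 0.10, -0.14 and -0.34 for genes with up to 10, 11 to 20, 21 to 30 and over 30 neighbours, and rho was negative on 38 of 39 chromosomes and -0.36 over all multi-exon genes. Of the 159 stretches with a fresh-frozen median below 0, 123 had an FFPE median below 0, and these included all 64 of the lowest. All 6 of the highest had one above 0. Chromosome medians in the 2 preservations had a rho of 0.88. Short single-exon features had an FFPE median of 0.03, unlike the 0.62 in fresh-frozen tissue, although that difference was not tested. The division of mitochondrial features by strand was not the same as in fresh-frozen tissue. Plus-strand features had FFPE medians of 0.36 (200 bp or more) and 1.14 (shorter), against 1.03 and 0.15 in fresh-frozen tissue. The shorter plus-strand features were thus raised too. Minus-strand mitochondrial features were above 0 in 9 of 9 cases (median 2.29), 3 of them at an unadjusted p under 0.05. Their share of mitochondrial counts was 0.381% and 0.734% in the set B controls against 0.112% in the only set A control. In tumours the sets overlapped, with 0.196% and 0.0898% in set B and 0.127%, 0.0898% and 0.204% in set A. The fitted difference of 0.161 percentage points became 0.00258 without control 60460 and 0.0811 without control 60462.

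Library by library, FFPE tissue of 3 set B dogs followed their fresh-frozen tissue and that of the fourth did not. The series lists the samples of each group by rising dog number, apart from libraries placed at the group's end. Those were the 4 fresh-frozen set B libraries and the FFPE libraries of dogs 60126, 60462 and 60127. The FFPE library of dog 60461 stood in the rising order. What the listing reflects is not stated and was not tested. The difference between crowded and sparse genes was -0.30 in control 60126, -0.45 in control 60462 and -0.79 in tumour 60127, but 0.24 in tumour 60461. In set A dogs it was 0.36 in control 60460, and 0.21, -0.15 and 0.71 in tumours 60636, 60679 and 60749. With 1 set A control, the opposite signs in FFPE controls follow from the midpoint. The shares of counts do not depend on it. Genes with over 30 neighbours took 11.4%, 11%, 9.5% and 15.5% of multi-exon counts in set B dogs 60126, 60462, 60127 and 60461, and 16%, 15.3%, 13.7% and 17.6% in set A dogs 60460, 60636, 60679 and 60749. The set B mean was 11.9% ± 2.59 (SD, n = 4) and the set A mean 15.7% ± 1.63 (SD, n = 4). With tissue taken into account, the set B dogs were lower by 3.68 percentage points (fitted difference -3.68, two-sided exact permutation within tissue over 30 splits, p = 0.100, adjusted p = 0.750 over 9 measures). The smallest p that this design allows is 0.0333. The fitted difference was -2.29 without tumour 60127 and between -3.04 and -5.49 with any other library left out.

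The 8 other library measures had exact permutation p from 0.167 to 1.00 and adjusted p from 0.750 to 1.00. They were total counts, the mitochondrial share and its minus-strand and first 2700 bp parts, the shares of short single-exon features, unplaced scaffolds and sparse genes, and genes detected at equal depth. A single measure at the smallest p that the permutation allows (0.0333) would not pass after adjustment over the 9 measures. With 4 dogs on each side, and 1 control only in set A, these tests could not decide whether the sets differed beyond the spread between dogs. No conclusion rests on their adjusted p.

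The genes of the split were also summed up as a score in each of the 33 libraries: the median deviation of the higher genes minus that of the lower genes, relative to the mean of the same tissue and preservation. By construction the score separated the fresh-frozen sets (1.58 to 1.83 in set B, -1.04 to -0.61 in set A). In FFPE tissue it was 1.97, 1.91 and 1.97 in dogs 60126, 60462 and 60127 and 0.13 in dog 60461. The set A dogs stood at 0.06 (60460), -0.03 (60636), 0.49 (60679) and -0.74 (60749). The 13 FFPE libraries of dogs without fresh-frozen tissue ran from -1.43 to 1.52, and the highest of them, tumour 50416, was the only one above 0.53.

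**Figure D5:**
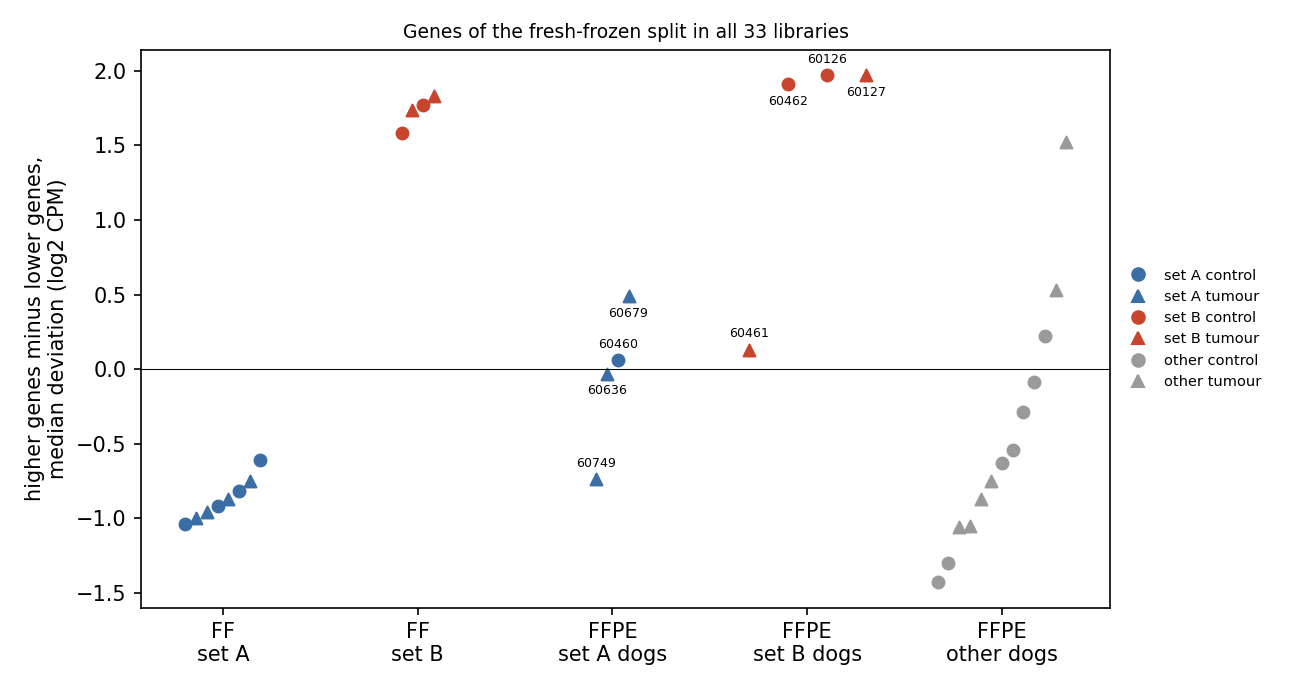
Median log2 CPM deviation of the genes higher in fresh-frozen set B minus that of the genes lower in it (y axis), for each of the 33 libraries by preservation and set (x axis). Circles are controls and triangles tumours; blue is set A, red set B and grey the 13 FFPE libraries of other dogs. FFPE libraries of 3 set B dogs stand at 1.91 to 1.97 and that of dog 60461 at 0.13.

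Tumour was then compared with control within each set, in one fit with a tissue by set interaction. The sets were chosen from these same fresh-frozen libraries, and the p-values of the fit do not allow for that choice. The interaction passed in 0 of 15057 genes (0%) by edgeR's quasi-likelihood test, with 446 (2.96%) at an unadjusted p under 0.05. DESeq2 and limma voom also called 0, with 704 and 555 at an unadjusted p under 0.05. The sets were seen as a split within each tissue, and that choice bears on the interaction. No conclusion rests on its 0 calls. In set A, 2305 genes were higher in tumour (15.3%) and 1370 lower (9.10%), 3675 in all (24.4%). In set B, with 2 tumours and 2 controls, 0 (0%) were called by edgeR (3469 at an unadjusted p under 0.05), 578 by limma voom and 1684 by DESeq2. Calls in set B depended on the tool, so a count in set A and none in set B is not read as a difference between them.

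The set A count at the adjusted threshold rested on single libraries. It was 0 without control 60459, 0 without control 60629, 331 without control 60460, 953 without tumour 60631 and 1401 without tumour 60749, and otherwise 2596 to 4491. The counts at an unadjusted p under 0.05 by edgeR did not fall to 0. They were 6414 with all libraries, 5155 without control 60459 and 5023 without control 60629. Fitted alone, set A gave 2291 calls at the adjusted threshold.

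Directions of the tumour effect were shared between the sets. Of the 2305 genes higher in set A tumours, 2246 (97.4%) had the same sign in set B, with a median of 1.47 in set A and 1.25 in set B. Of the 1370 lower genes, 1322 (96.5%) had the same sign, with medians of -1.36 and -1.02. Genes were picked in set A, so the smaller medians in set B were not tested. Over all 15057 genes the tumour effects in the 2 sets, which share no library, correlated at 0.78 by Pearson's and by Spearman's coefficient.

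Of the genes that carry the split, 100 of the 399 higher ones (25.1%) were higher in set A tumours than in set A controls and 22 (5.51%) lower. Of the 790 lower ones, 104 (13.2%) were higher in set A tumours and 54 (6.84%) lower. Over all genes tested these shares were 15.3% and 9.10%. The split genes were picked with the same set A libraries that gave the tumour calls, so these shares are a description and were not tested. Class medians of the tumour effect differed between sets for some classes, side by side and without a test. They were 0.27 in set A and 0.00 in set B for genes with over 30 neighbours, and 0.03 and 0.02 for those with up to 10. Short single-exon features stood at 1.14 and 0.46, chromosome 20 at 0.56 and 0.28, and mitochondrial features at -1.26 and -1.14.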

How the data were processed

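The authors deposited raw fragment counts for each gene, made with featureCounts 1.6.0 on the forward strand, with a mapping quality of at least 10 and the Ensembl release 100 models of CanFam3.1, per the file headers. Libraries came from a forward-stranded total RNA kit with molecular identifiers of 12 nt, per the labels' protocols. Collapsing by these identifiers is not stated in the sources used. The count table listed 30951 genes, 750 without a count.

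The counts were fitted with edgeR 4.0.16 under R 4.3.3 (filterByExpr by tissue, TMM scaling, robust quasi-likelihood fits, Benjamini-Hochberg threshold 0.05). Separate fits covered the 12 fresh-frozen libraries (tissue plus set, and tissue by set) and the 8 FFPE libraries of the same dogs (tissue plus set). Log2 CPM used a prior count of 2. The scripts were tested on simulated data. The alternatives were RLE scaling, other filters, feature classes left out, thinning, DESeq2 1.42.0, limma 3.58.1 voom, other fold thresholds and each library left out.

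The libraries, the sets, the classes of genes and the tests were chosen with earlier results of these data known. Printed identifiers were ranked by the smaller of their control and tumour differences. Each dog is 1 animal, so p-values measure the spread between dogs.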

Additional observations from a re-analysis of the deposited data

Results flagged for a closer look

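Of 83 groups of 4 to 10 library values checked, 9 had a library far from the others, where chance alone flags about 1 in 20. Dog 60462 of set B stood out among the fresh-frozen controls with 23196 genes detected at equal depth, against 18384 to 19645 in the other 5. Its FFPE library, thinned with the others to 1596967 counts, had 26124 against 15243 to 17607 in the other 7 set dogs.

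Tumour 60127 of set B was apart on 3 measures. Its mitochondrial share was 23.3% in fresh-frozen tissue, against 4.06% to 8.92% in the other tumours, and the first 2700 bp took 11.7% of its mitochondrial counts, against 5.02% to 6.85%. In FFPE tissue, unplaced scaffolds took 0.725% of its counts, against 1.3% to 1.47% in the other 4 tumours of set dogs.

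Within set A, control 60516 had 6.46 log2 CPM of ENSCAFG00000001487, apart from the other 3 set A controls (3.14 to 3.65) and from all other fresh-frozen controls (2.06 to 3.65). It also scored -25.2 on the first component, against 9.4 to 13.1. Control 60460 had 14.9% of multi-exon counts in genes with over 30 neighbours, against 14.4% in each of the other 3. Tumour 60631 had the largest difference between crowded and sparse genes of the 4 set A tumours, 0.66 against 0.37 to 0.40.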

How the results depend on the processing

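The count of 1189 genes that carry the split stayed within 1.5 times under RLE scaling (1190), other filters, left-out feature classes, thinning and each library left out (1233 to 1726). Leaving a library out loosens the no-overlap rule, so the higher counts do not show that the split is free of single libraries. The count was 2290 from controls alone, 2263 from tumours alone, 2267 at 1.5-fold and 105 at 4-fold. In FFPE tissue, 67 genes (39 higher, 28 lower) were called with no filter on low counts and 9 by DESeq2, and 0 under the other 16 alternatives. The share of split genes with the same direction in FFPE tissue (95.2%) ran from 87.9% without control 60460 to 96.6% without tumour 60461, and was 96.6% for genes picked at 4-fold. The interaction gave 0 calls under all 20 alternatives, all of them on the libraries from which the sets were chosen. Tumour calls ran from 0 to 4491 in set A with each library left out (2291 when fitted alone, 5319 by limma voom and 5399 by DESeq2). In set B they ran from 0 to 405, with 578 by limma voom and 1684 by DESeq2; tool and leave-one-out fits of the tumour effect were added after seeing the data. The no-filter alternative moved the median of all genes from -0.04 to 0.21 and that of unplaced scaffolds from -0.57 to -0.08; with it, genes with up to 10 neighbours stood at 0.45 and those with over 30 at -0.57. FFPE library differences that changed sign with a library left out were total counts (-0.116 to 9 M counts), the mitochondrial share (-1.97 to 8.81 points), its first 2700 bp (-2.3 to 18 points) and short single-exon features (-0.928 to 0.939 points). The cause of these changes was not tested. No paired analysis was possible because the set is constant within a dog and tumour and control came from different dogs. The smallest FFPE library, control 60462, held 1.6 M counts, and 0 genes were called in FFPE tissue without it and 0 after thinning to its depth.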
